A study of Mus musculus with 5 samples.

Results

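The 309 regions described here are merged stretches of the mouse genome. Each holds at least 1 peak of ubiquitinated histone H2A from each of the 4 immunoprecipitated libraries of the study. Of the 2575 merged regions in all they are 12.0% (exact Clopper-Pearson 95% interval 10.8 to 13.3). They were chosen by merging the peaks of the 4 lists where they overlapped or touched and keeping the merged regions that held at least 1 peak of each list, so being marked in every library is the rule and not a finding. Together they spanned 12.4 Mb, 21.2% of the merged length of all regions. The libraries came from lineage-negative bone marrow progenitors of C57BL/6 mice, and the DNA bound to histone H2A carrying ubiquitin on a lysine of its tail (H2AK119Ub) was sequenced. All donors carried R26CreERT2 (an inducible Cre recombinase at the Rosa26 locus), Ring1a-/-, conditional Ring1b alleles (Ring1bf/f) and Cdkn2a-/-. The labels do not say whether Ring1b had been deleted, how many animals were pooled or how long the cells were cultured. One culture was not transduced, and the others received HOXA9, PML-RARa or MLL-AF9, with 1 library for each. No empty-vector culture was described and the input library was not analysed here.

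H2AK119Ub is placed by Polycomb repressive complex 1, whose catalytic subunits are RING1A and RING1B, and it is known for covering silent developmental genes. With Ring1a deleted in every donor, RING1B is the remaining catalytic subunit. The best known targets are the Hox clusters and other genes for homeobox, T-box, forkhead and Wnt proteins, most of which start in DNA rich in CG pairs. HOXA9 is itself a homeobox factor of early progenitors, MLL-AF9 is a fusion known to raise transcription of Hoxa genes, and PML-RARa is the fusion of acute promyelocytic leukaemia.

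Regions are given by their mm9 positions. An mm9 genome was not used here, so the bases of the regions were not read, and names of loci below come from general knowledge of the mm9 map and not from an annotation. To show the kind of DNA that such genes start in, the 250 bases before the RefSeq start of 4 genes are printed from the GRCm38.p6 promoter table, 1 gene for each of 4 named loci. Each runs 5′ to 3′ along the gene's strand, with CG pairs in capitals. Hoxa11 and Hoxd13 are homeobox genes of limb and trunk patterning, Wnt1 encodes a secreted signal of brain development, and Tlx1 is a homeobox gene of the spleen.

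Hoxa11: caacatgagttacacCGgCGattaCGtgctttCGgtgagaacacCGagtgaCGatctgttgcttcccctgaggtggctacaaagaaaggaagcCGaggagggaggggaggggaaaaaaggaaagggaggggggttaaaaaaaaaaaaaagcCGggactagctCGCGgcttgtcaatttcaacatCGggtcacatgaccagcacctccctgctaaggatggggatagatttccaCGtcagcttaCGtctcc
Hoxd13: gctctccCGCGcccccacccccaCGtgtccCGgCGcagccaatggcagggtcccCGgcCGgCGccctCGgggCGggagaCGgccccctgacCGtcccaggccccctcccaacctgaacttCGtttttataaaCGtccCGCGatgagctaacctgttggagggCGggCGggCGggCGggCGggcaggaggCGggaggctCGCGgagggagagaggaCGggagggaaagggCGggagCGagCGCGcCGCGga
Wnt1: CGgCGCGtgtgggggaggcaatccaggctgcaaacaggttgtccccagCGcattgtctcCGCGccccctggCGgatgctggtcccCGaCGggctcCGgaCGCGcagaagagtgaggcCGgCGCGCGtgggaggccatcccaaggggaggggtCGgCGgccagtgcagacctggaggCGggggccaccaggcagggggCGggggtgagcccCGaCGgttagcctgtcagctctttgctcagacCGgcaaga
Tlx1: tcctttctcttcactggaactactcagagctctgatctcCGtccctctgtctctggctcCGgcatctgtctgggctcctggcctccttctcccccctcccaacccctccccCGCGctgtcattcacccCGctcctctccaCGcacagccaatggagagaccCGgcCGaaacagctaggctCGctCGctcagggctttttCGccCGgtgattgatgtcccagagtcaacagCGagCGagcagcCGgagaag

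These windows held 13 CG pairs for Hoxa11, 31 for Hoxd13, 23 for Wnt1 and 15 for Tlx1. The median over all 32851 windows of the same length was 6 and the upper quartile 16, so Hoxa11 and Tlx1 lay between the median and the upper quartile. At least as many CG pairs as in the Hoxa11 window were found in 31.5% of all windows. The share was 27.3% for Tlx1, 13.3% for Wnt1 and 5.19% for Hoxd13. The windows describe these genes only, and were not matched to a peak by position.

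The mark was broad at the shared regions. The merged region had a median length of 32.2 kb, from 6.46 to 246.9 kb, against 25.7 kb for the 426 regions of 3 libraries, 17.7 kb for the 581 of 2 and 12.1 kb for the 1259 of 1. Merging joins the peaks of more lists into longer spans, so this order is given without a test. In the non-transduced library the shared regions were covered over a median of 24.1 kb (quartiles 14.9 and 40.1), and the library's other 966 regions over 17.3 kb. The HOXA9 median was 19.8 kb (13.2 and 30.8), against 14.8 kb in its other 290 regions. The PML-RARa median was 23.7 kb (16.6 and 38.3), against 14.3 kb in its other 1403 regions. The MLL-AF9 median was 21.0 kb (12.5 and 34.9), against 13.3 kb in its other 1040 regions. The median of the shared regions was the higher one in each list, but a longer peak meets the peaks of other lists more easily, so the rule itself favours this order. The quartiles of the 4 libraries overlapped broadly, and outside PML-RARa the lower quartile of the shared regions lay below the median of the others.

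**Figure D1:**
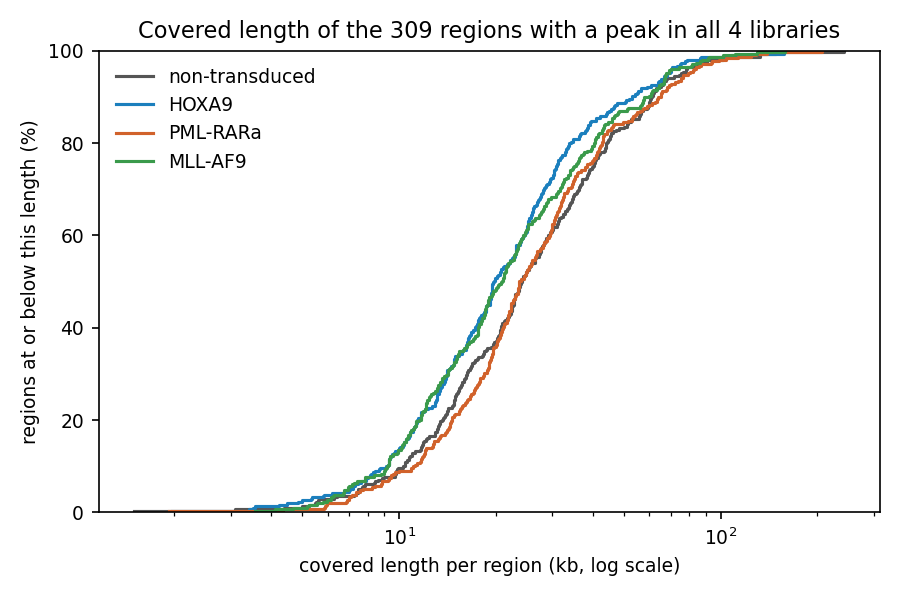
Share of the 309 regions (y axis, percent) covered over at most the length on the x axis (kb, log scale), 1 line per library. The lines of HOXA9 and MLL-AF9 (medians 19.8 and 21.0 kb) lie to the left of those of PML-RARa and the non-transduced library (23.7 and 24.1 kb) over most of the range.

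Most shared regions were simple, with a single peak from each library in 249 of 309. More than 1 peak was found in 27 regions of the non-transduced library, 14 of HOXA9, 28 of PML-RARa and 29 of MLL-AF9. The most divided region, chr2:166893314-167069554, held 1 non-transduced peak of 148.5 kb, 2 HOXA9 peaks, 4 PML-RARa peaks and 4 MLL-AF9 peaks. HOXA9 covered 31.6 kb of it, MLL-AF9 57.3 kb and PML-RARa 82.6 kb, all less than the non-transduced peak. At chr10:126936949-127059709 the non-transduced library and MLL-AF9 had 3 peaks each, PML-RARa 2 and HOXA9 1. The longest shared region, chr6:89179615-89426491, had 242.6 kb of non-transduced and 206.6 kb of PML-RARa coverage, while MLL-AF9 covered 91.6 kb and HOXA9 73.3 kb. Its HOXA9 peaks lay at 89291068 to 89317451 and 89349264 to 89396144, and the MLL-AF9 peaks at nearly the same places, 89284141 to 89317233 and 89349213 to 89407738.

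The shared regions held 340 of the 1332 non-transduced peaks (25.5%, interval 23.2 to 28.0), 323 of the 620 HOXA9 peaks (52.1%, interval 48.1 to 56.1), 342 of the 1772 PML-RARa peaks (19.3%, interval 17.5 to 21.2) and 344 of the 1408 MLL-AF9 peaks (24.4%, interval 22.2 to 26.8). The HOXA9 list was the shortest and set the limit: 280 of the 426 regions of 3 libraries lacked only HOXA9, 72 only the non-transduced library, 46 only MLL-AF9 and 28 only PML-RARa. Without the HOXA9 list 589 regions were common to the other 3. The depth of the libraries is unknown.

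Agreement on the shared regions was partial at the level of bases. All 4 libraries covered 46.5% of the merged length (5.79 Mb), 3 covered 17.6%, 2 covered 15.3% and 1 covered 20.6%. In the single region the part covered by all 4 had a median length of 14.7 kb (quartiles 9.32 and 22.7) and made up a median of 51.3% of the region. It reached 50% or more of the region in 160 of 309. Stretches covered by the non-transduced library alone made up 8.16% of the merged length and by PML-RARa alone 6.95%, against 2.97% for MLL-AF9 alone and 2.54% for HOXA9 alone. Stretches covered by every library but HOXA9 made up 6.35%, and by every library but PML-RARa 2.77%.

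At the edge of the rule were 3 regions that a peak of every list touched but in which no base was covered by all 4. At chr11:114595770-114674656 the non-transduced peak spanned the whole 78.9 kb, the PML-RARa peak ended at 114643406 and the HOXA9 peak began at 114644643. At chr2:28444195-28490439 the HOXA9 peak ended at 28458221, before the non-transduced peak began at 28461580, and PML-RARa and MLL-AF9 peaks of 41.6 and 44.8 kb joined them. At chr3:66773894-66788261 the non-transduced peak was 1.499 kb long at the left end, and the MLL-AF9 peak of 7.26 kb lay at the right end. The smallest parts covered by all 4 above 0 were 1.92 kb on chr16:34568722-34577071, 2.10 kb on chr5:135723208-135730780 and 2.88 kb on chr3:101810731-101823616. Just outside the rule, chr3:87771584-87822051 had no HOXA9 peak, but one began or ended 1.02 kb away. The same distance separated chr19:5088935-5102503 from a PML-RARa peak and chr11:82722982-82745715 from a non-transduced peak.

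The longest stretch covered by all 4 libraries, 128.6 kb, lay at the HoxC cluster on chr15:102742683-102902590. The cluster holds Hoxc4 to Hoxc13, homeobox genes of trunk and limb patterning. Each library had a single peak there: the HOXA9 one was 159.9 kb long, the non-transduced one 133.1 kb, the MLL-AF9 one 129.7 kb and the PML-RARa one 128.6 kb. The left ends of the 4 peaks lay within 3.04 kb. The right ends of the non-transduced, PML-RARa and MLL-AF9 peaks lay between 102874297 and 102876080, and the HOXA9 peak ran on to 102902590. The next longest such stretches were 87.4 kb on chr15:78445380-78577668, 83.0 kb on chr7:151563494-151662686, 72.9 kb on chr6:89179615-89426491 and 72.2 kb on chr8:114193065-114364762.

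At the HoxA locus 3 shared regions followed each other over 137.8 kb, with gaps of 865 and 968 bp. Without an mm9 annotation it was not read which of the 3 hold Hoxa genes and which lie beside the cluster. Their lengths are thus not read as coverage of Hox genes. In the first region, chr6:52141970-52210289, the MLL-AF9 peak covered 26.4 kb at the right and the other 3 libraries 64.5 to 68.3 kb, so the 41.9 kb at its left had no MLL-AF9 peak. All 4 peaks ended within 53 bp of each other and the next ones all began within 106 bp, leaving 865 to 1009 bp unmarked in each library. In the second region, chr6:52211155-52237430, HOXA9 covered 26.3 kb, MLL-AF9 24.7 kb, the non-transduced library 24.0 kb and PML-RARa 21.1 kb, an even spread without a short MLL-AF9 peak. In the third, chr6:52238399-52279806, PML-RARa covered 40.0 kb with 2 peaks, MLL-AF9 29.1 kb, the non-transduced library 26.4 kb and HOXA9 26.0 kb. To the left of these regions, at chr6:52101568-52123951, a peak was listed in the non-transduced library alone, at rank 77.6% of its list by score.

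At the HoxD cluster, chr2:74491905-74594785, the peaks of the 4 libraries in the shared region began within 81 bp of each other. Ending 1037 bp to the left of it, at chr2:74480394-74490867, the non-transduced library and PML-RARa had a further peak each, of 10.47 and 10.31 kb, where none was listed for HOXA9 or MLL-AF9. In the order of the GRCm38.p6 gene table Hoxd13 is the first Hox gene on this side, if the cluster runs the same way in mm9. By score the further peaks stood low in their lists, at rank 71.0% for the non-transduced library and 94.5% for PML-RARa. In the shared region HOXA9 ran over 65.3 kb and PML-RARa over 65.5 kb as 1 peak each. MLL-AF9 covered 101.9 kb with peaks of 64.2 and 37.6 kb. The non-transduced library covered 62.2 kb with peaks of 48.1, 2.39 and 11.7 kb. At the HoxB cluster none of the 5 merged regions was shared by all, and none held a HOXA9 peak.

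At the Tbx2/Tbx4 locus, where 2 T-box genes of limb and heart development lie, both merged regions were shared. In chr11:85624043-85667244 PML-RARa covered 41.8 kb, the non-transduced library 40.1 kb, HOXA9 39.7 kb and MLL-AF9 25.8 kb. In chr11:85683992-85725712 the lengths were 30.5, 28.5, 24.2 and 23.5 kb in the same order. MLL-AF9 had the shortest coverage in both.

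The region at the Wnt1/Wnt10b locus, chr15:98587466-98642154, showed the most uneven coverage of the 5 regions with the best score ranks. PML-RARa covered all 54.7 kb with 1 peak. The non-transduced library had peaks of 19.4 and 24.3 kb and HOXA9 peaks of 9.46 and 27.1 kb, with the second peaks ending at 98641525 and 98641536. MLL-AF9 had only the peak of 11.1 kb, at 98604140 to 98615251, and none over the right-hand stretch. The second HOXA9 peak had the lowest score in its list, 700, so it was at the edge of what the list holds. The part covered by all 4 was 8.97 kb.

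At the Tlx1/Lbx1 locus, which holds a pair of homeobox genes, 2 of the 5 merged regions were shared. In chr19:45280500-45360024 the non-transduced peak was 39.0 kb long, and the MLL-AF9 (51.6 kb), PML-RARa (56.8 kb) and HOXA9 peaks (64.0 kb) were all longer. In chr19:45198669-45255576 the HOXA9 peak was 51.8 kb long, the PML-RARa peak 45.8 kb, the non-transduced peak 45.3 kb and the MLL-AF9 peak 36.5 kb. The region of the Mapk12/Mapk11/Plxnb2 locus (2 stress-activated kinases and a plexin receptor), chr15:88954187-89041315, had the best mean score rank, in the first 0.5% of every list, and all 4 libraries covered 64.0 kb of its 87.1 kb. The loci of the self-renewal regulators Meis1, Gata2, Prdm16 and Mecom and the Foxq1/Foxf2/Foxc1 cluster held no shared region.

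**Figure D2:**
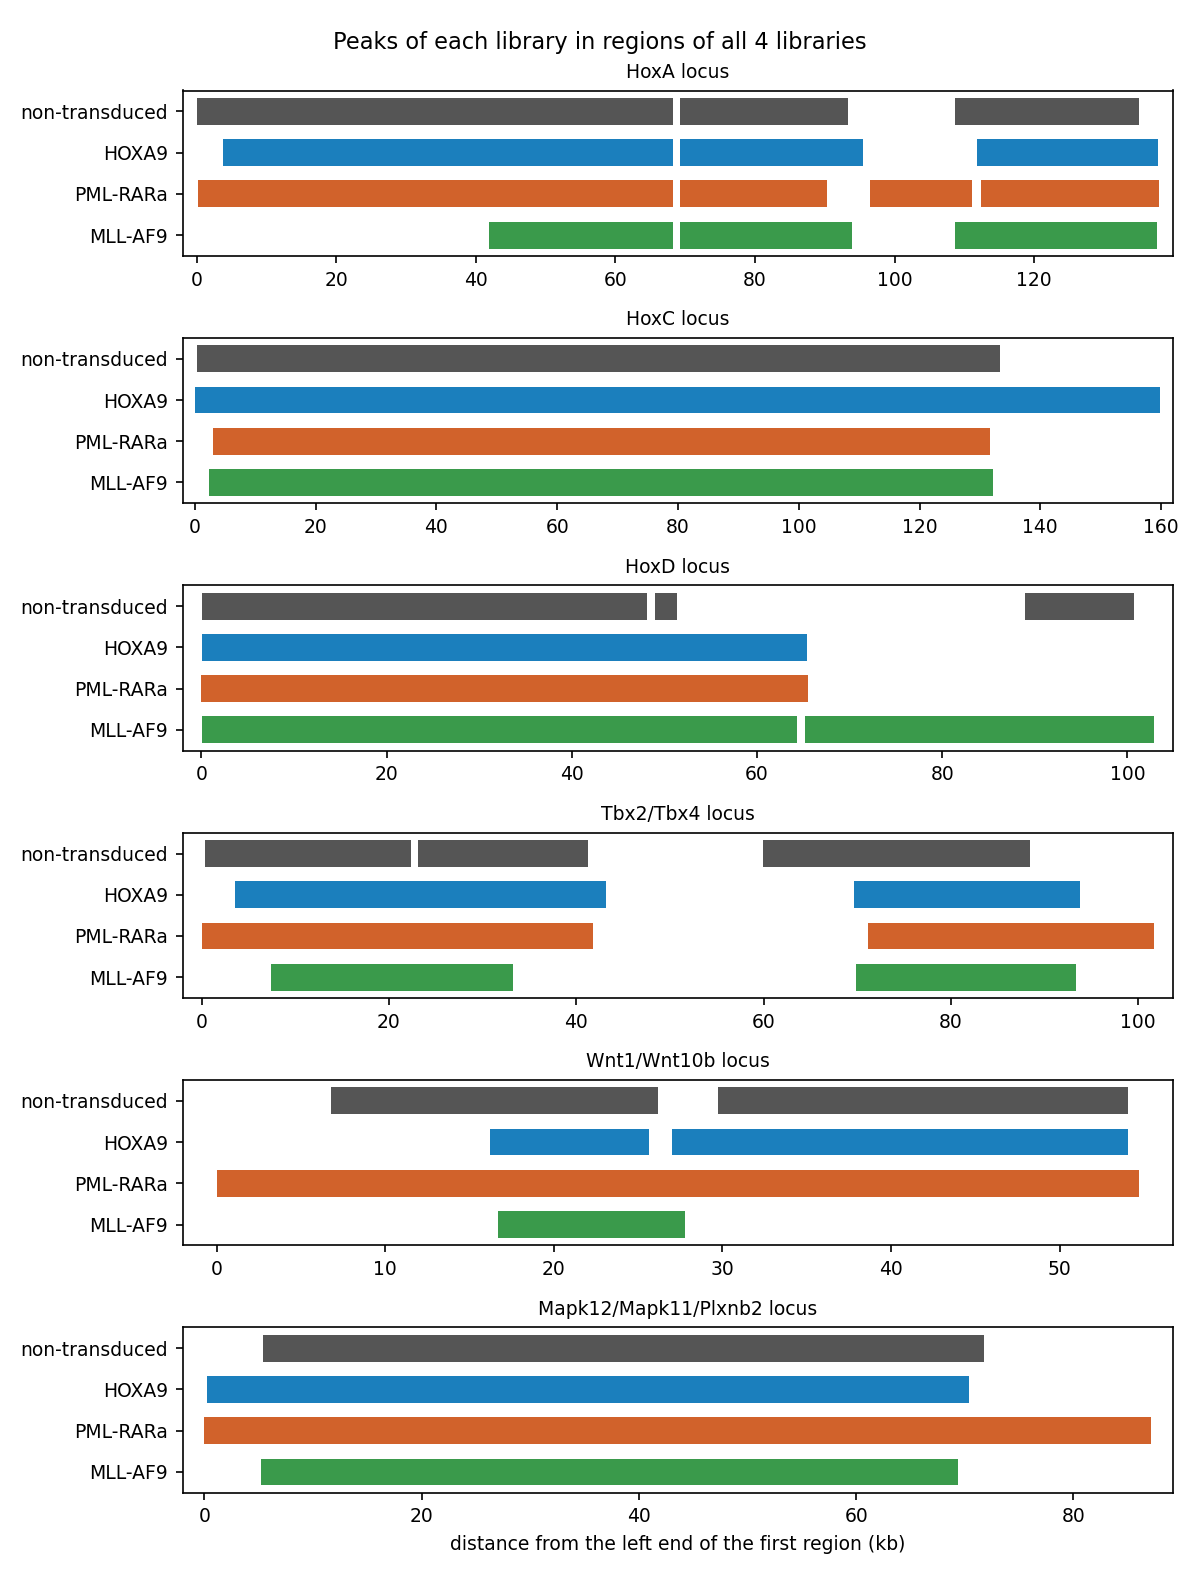
Peaks of each library (bars, 1 row per library) within the shared regions of 6 loci. The x axis is the distance in kb from the left end of the first shared region, on a scale of its own for each locus. The MLL-AF9 bars are short at HoxA (26.4 kb in the first region) and at Wnt1/Wnt10b (11.1 kb), and the 4 rows start together in the shared region at HoxD.

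Relative to the non-transduced library, the summed coverage of the shared regions was 0.833 times as long for HOXA9, 0.879 times for MLL-AF9 and 1.01 times for PML-RARa. With 1 library per group these ratios have no replicate error and no test, and they compare the libraries and not the conditions. The median ratio per region was 0.913 for HOXA9 (quartiles 0.656 and 1.07), 0.936 for MLL-AF9 (0.705 and 1.12) and 1.02 for PML-RARa (0.854 and 1.28). The same medians over all regions with a peak of both lists were 0.915 (398 regions), 0.945 (729) and 1.03 (811), but these sets hold the 309 shared regions. Over the regions of both lists that were not shared by all 4 the medians were 0.955 (89 regions), 0.946 (420) and 1.03 (502) in the same order. The HOXA9 coverage was below the non-transduced one in 200 of 309 regions (64.7%, interval 59.1 to 70.1), the MLL-AF9 coverage in 190 (61.5%, interval 55.8 to 66.9) and the PML-RARa coverage in 143 (46.3%, interval 40.6 to 52.0). These intervals cover counting error over regions of 1 library each. No such share is given for the regions of both lists outside the shared ones. The counts are therefore not read as particular to the shared regions. All 3 ratios share the non-transduced library.

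Larger differences, by a factor of 2, were read against the same count over all regions with a peak of both lists, a background that includes the shared regions, and beside the regions of both lists outside them. HOXA9 covered 0.5 times the non-transduced length or less in 46 shared regions (14.9%), with a background of 14.3%, and 2 times or more in 7 (2.27%), with a background of 3.52%. MLL-AF9 was at 0.5 times or less in 38 (12.3%), with a background of 12.6%, and at 2 times or more in 13 (4.21%), with a background of 5.08%. PML-RARa was at 0.5 times or less in 17 (5.50%), with a background of 7.52%, and at 2 times or more in 17, with a background of 9.12%. Outside the shared regions, HOXA9 was at 0.5 times or less in 11 of 89 regions (12.4%, interval 6.33 to 21.0) and at 2 times or more in 7 of 89 (7.87%, interval 3.22 to 15.5). MLL-AF9 was there at 0.5 times or less in 54 of 420 (12.9%) and at 2 times or more in 24 (5.71%), and PML-RARa in 44 of 502 (8.76%) and 57 (11.4%). For HOXA9 and MLL-AF9 at 0.5 times or less, the shares in the shared regions were close to those outside. Their intervals (11.1 to 19.4 and 8.85 to 16.5) hold the outside shares. The same was true of MLL-AF9 at 2 times or more (interval 2.26 to 7.09), so no direction is read from these counts. The shares in the shared regions were lower for PML-RARa at either limit and for HOXA9 at 2 times or more. None of these differences was tested. All 3 oncogene libraries were at 0.5 times or less in 8 shared regions (2.59%) and at 2 times or more in 2 (0.647%). The regions with a peak of all 4 lists are the shared regions themselves, so no other background exists for these counts.

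The regions with the lowest HOXA9 coverage relative to the non-transduced library were chr17:87140482-87203641 (5.83 against 63.2 kb), chr11:116075004-116106373 (5.002 against 31.3 kb) and chr4:57129878-57192937 (11.04 against 63.1 kb). In the first and the third of these PML-RARa and MLL-AF9 were short as well, with 12.0 and 12.1 kb and with 14.4 and 8.97 kb. In the second PML-RARa covered 25.7 kb and MLL-AF9 11.5 kb. By score the non-transduced peak of the third stood near the bottom of its list, at rank 86.8%, against 38.0% in the first and 35.6% in the second. The lowest PML-RARa ratios were 0.135 on chr4:46046972-46094694, 0.161 on chr9:42723445-42769046 and 0.167 on chr8:124236562-124297021. On chr9 and chr8 the PML-RARa peaks were 7.33 and 7.55 kb long, while HOXA9 covered 28.3 and 38.6 kb and MLL-AF9 28.2 and 31.8 kb. MLL-AF9 had its lowest ratios on chr4:46046972-46094694 (0.134) and chr4:57129878-57192937 (0.142), followed by chr11:96938802-97017207 (0.176). In the last, HOXA9 was short too (14.1 kb), and PML-RARa (76.5 kb) matched the non-transduced 76.2 kb.

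The highest ratios of all 3 oncogene libraries were on chr3:66773894-66788261, where the non-transduced peak was 1.499 kb long and stood at rank 92.4% of its list by score. Apart from it, HOXA9 was longest relative to the non-transduced library on chr14:70474942-70496073 (21.1 against 5.64 kb) and chr5:115620262-115673215 (53.0 against 16.7 kb). PML-RARa was longest on chr5:92630802-92723875 (93.1 against 19.6 kb) and chr7:19861463-19880349 (18.9 against 4.38 kb). MLL-AF9 was longest on chr4:137997858-138036757 (38.5 against 11.7 kb) and chr12:8829365-8916067 (81.3 against 27.3 kb). On chr12 HOXA9 covered 86.7 kb and PML-RARa 30.3 kb.

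**Figure D3:**
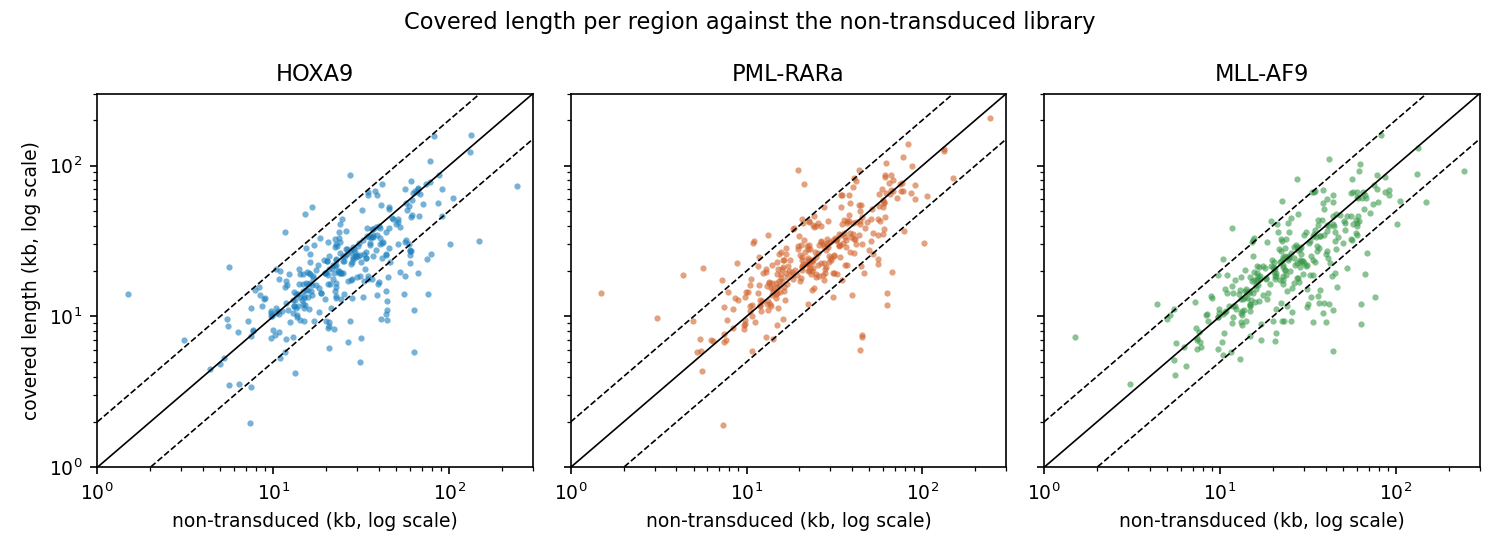
Covered length of each of the 309 regions in an oncogene library (y axis, kb, log scale) against the non-transduced library (x axis, kb, log scale), 1 panel per oncogene. The solid line marks equal lengths and the dashed lines a factor of 2. More points lie on or under the lower dashed line for HOXA9 (46, 14.9%) and MLL-AF9 (38, 12.3%) than for PML-RARa (17, 5.50%). The shares over all regions with a peak of both lists had the same order, 14.3%, 12.6% and 7.52%.

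Among the 4 libraries, MLL-AF9 covered least in 106 shared regions (34.3%, interval 29.0 to 39.9), HOXA9 in 99 (32.0%, interval 26.9 to 37.6), the non-transduced library in 58 (18.8%, interval 14.6 to 23.6) and PML-RARa in 46 (14.9%, interval 11.1 to 19.4). With only the best 620 peaks of each list, HOXA9 covered least in 21.2% of 118 shared regions. PML-RARa covered most in 112 and the non-transduced library in 100, against 49 for HOXA9 and 48 for MLL-AF9. The longest coverage was a median of 1.74 times the shortest (quartiles 1.36 and 2.58), and 2 times or more in 120 regions. The most even ones were chr17:25682687-25715849, with 31.7 to 32.5 kb in the 4 libraries, chr18:60747622-60826574, with 65.2 to 66.9 kb, and chr8:12374920-12407432, with 27.9 to 29.7 kb. The least even was chr17:87140482-87203641, with a ratio of 10.8, followed by chr3:66773894-66788261 (9.59) and chr11:61312424-61407197 (9.03), where PML-RARa covered 93.9 kb and HOXA9 10.4 kb.

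Across the 309 regions the log2 covered lengths of any 2 libraries were correlated with Pearson's r from 0.70 (non-transduced and HOXA9) to 0.77 (HOXA9 and MLL-AF9). The points share the region, whose span limits every length, so r is a description and has no p. In shared bases, HOXA9 and MLL-AF9 had 69.6% of the length covered by either in common, the non-transduced library and PML-RARa 68.3%, and the non-transduced library and HOXA9 63.0%, the lowest of the 6 pairs.

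Agreement of the ends was counted at each end and at both, and the count at both cannot exceed that at either end. The left ends of all 4 libraries lay within 1000 bp of each other in 56 regions (18.1%, interval 14.0 to 22.9) and the right ends in 48 (15.5%, interval 11.7 to 20.1), and 101 regions had at least 1 such end. Both ends lay within that distance in 3 regions, which were chr15:76345571-76356552, chr3:87823031-87837858 and chr11:119904068-119915015. These 3 were short, with merged lengths from 10.9 to 14.8 kb. The median spread was 6.39 kb at the left end and 5.32 kb at the right. PML-RARa began first in 120 regions and ended last in 104, the non-transduced library in 77 and 88, MLL-AF9 in 57 and 55 and HOXA9 in 55 and 62.

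**Figure D4:**
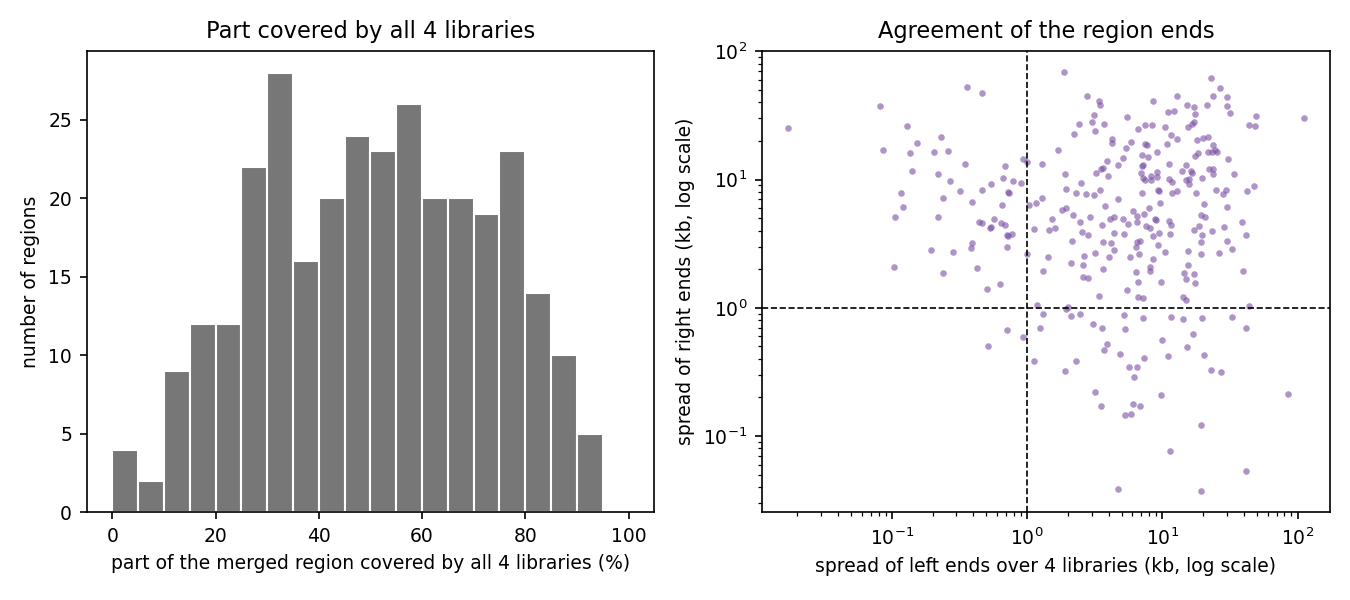
Left, number of regions (y axis) by the part of the merged region that all 4 libraries cover (x axis, percent, steps of 5), with a median of 51.3%. Right, the spread of the left ends (x axis) against that of the right ends (y axis) over the 4 libraries, in kb on log scales, with dashed lines at 1 kb. Only 3 of the 309 points lie in the lower left corner.

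The score of a peak is the authors' own value, and it was ranked within its own list only. The best peak of a shared region ranked at a median of 29.1% of the non-transduced list, where 0 is the highest score, and the list's other regions at 55.7%. The medians were 21.8% against 58.4% for PML-RARa, 24.2% against 54.9% for MLL-AF9 and 36.5% against 60.4% for HOXA9. The shared regions held 71 of the 133 peaks in the best 10% of the non-transduced list (53.4%, interval 44.5 to 62.1) and 19 of the 133 in its last 10% (14.3%, interval 8.83 to 21.4). They held 88 against 13 of 177 PML-RARa peaks, 71 against 16 of 140 MLL-AF9 peaks and 50 against 24 of 62 HOXA9 peaks. Of all peaks of a list they held 25.5% for the non-transduced library, 19.3% for PML-RARa, 24.4% for MLL-AF9 and 52.1% for HOXA9. Membership needs a listed peak in every list, and a region with several peaks is ranked by its best. The rule thus bears on this order, which was not tested. Shared regions nevertheless reached the bottom of each list, and 10 of 309 stood in the best 10% of all 4 lists, while 170 did so in at least 1. At HoxC the MLL-AF9 peak ranked at 0.852% and the HOXA9 peak at 40.3%, although both covered the cluster. In the second HoxA region the HOXA9 peak ranked at 4.68% and the MLL-AF9 peak at 85.8%.

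**Figure D5:**
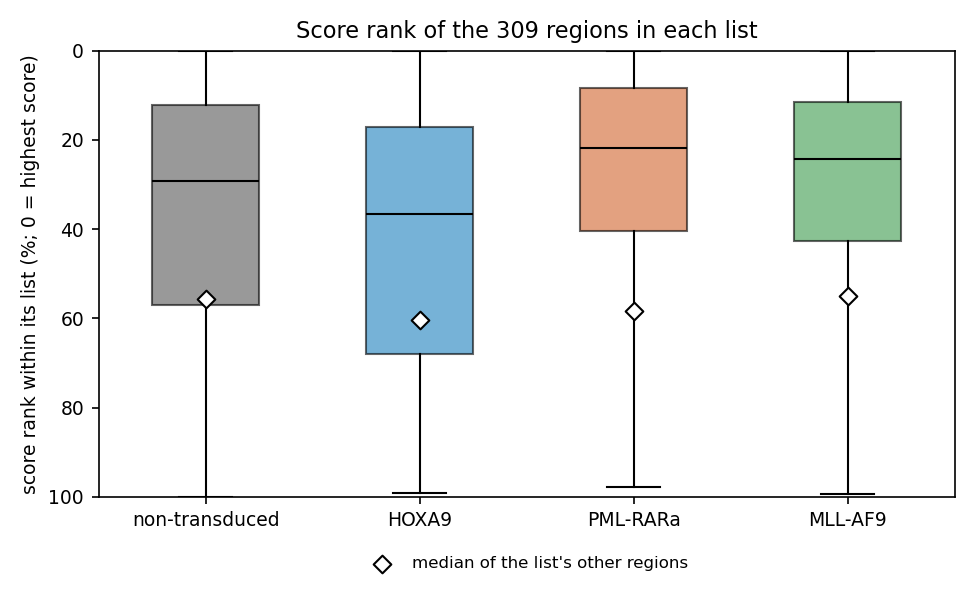
Score rank of the best peak of each of the 309 regions within its own list (y axis, percent, 0 at the top for the highest score), 1 box per library with the median, quartiles and full range. Diamonds mark the median of the list's other regions, which lies between 54.9 and 60.4% in the 4 lists, below the median of the shared regions in each.

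Shared regions were found on every autosome and on none of the 11 regions of chromosome X, where an exact upper bound on the share is 28.5%. Chromosome 11 held 37, chromosome 2 held 35, chromosome 7 held 30, chromosome 4 held 25 and chromosome 15 held 24. The share of a chromosome's regions that were shared was highest on chromosome 15, with 24 of 124 (19.4%, interval 12.8 to 27.4), and lowest among the autosomes on chromosome 13, with 7 of 90 (7.78%, interval 3.18 to 15.4). These 2 intervals overlap each other. Another region of any kind lay within 10 kb of 64 shared regions (20.7%, interval 16.3 to 25.7) and of 486 of the 2266 other regions (21.4%, interval 19.8 to 23.2), so close neighbours were about as common for both. Within 50 kb of each other, 33 shared regions formed 16 groups, of which HoxA was the only one with 3.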

How the data were processed

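ChIP-seq for H2AK119Ub was analysed in 4 libraries, 1 per group, grouped by the transduction given in the labels. Per the submitters' processing notes the authors used Bowtie, MACS2 and the mm9 build. Settings and versions of these tools are not stated there, nor whether the peak caller was run against the input library. The authors deposited 1 peak list per library with a score per peak, whose scale is not stated and whose lowest value was 700. Peaks were called for each library alone. The lists hold no read counts, so the depth is unknown. Positions are printed counting from 1.

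Peaks of the 4 lists were merged where they overlapped or touched, with pandas 2.3.3 and numpy 2.4.6 under Python 3.11.15. Intervals came from scipy 1.17.1 and figures from matplotlib 3.10.9. The covered length of a region is the summed length of a library's peaks in it. The merging code was checked against counts per base on simulated lists. Shares have exact (Clopper-Pearson) 95% intervals, which cover counting error only and treat regions as independent. No test between groups was possible with 1 library per group. The regions, loci and lists were chosen with earlier results of these data known. Named regions are those with the best mean rank, the longest, those with the longest part covered by all 4, the most and least even (up to 5 each), the 3 lowest and highest ratios per oncogene, those with most peaks or no common base, and those at the named loci. The regions with both ends within 1000 bp, the smallest common parts and those in the closing observations were chosen after their values were seen. Planned counts of gene groups and base composition of the regions were left out, since the gene table at hand is of GRCm38.p6; it was used for gene order and promoter sequences, and all 4 genes asked for were matched. Alternatives were stricter lists (the upper 75% or 50% by score, or the best 620 peaks), merging within 1000 bp and a required common base. Leaving out each library was added after seeing the data.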

Additional observations from a re-analysis of the deposited data

How the results depend on the processing

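The number of shared regions depended on the length of the lists: it was 182 with the upper 75% of each list by score, 99 with the upper 50% and 118 with the best 620 peaks of each. It was 309 with peaks merged within 1000 bp and 306 with a base covered by all 4 required. Leaving out the HOXA9 library gave 589 regions common to the others, against 382 without the non-transduced library, 340 without PML-RARa and 355 without MLL-AF9. Coverage in PML-RARa relative to the non-transduced library was 1.01 and fell to the other side of 1 with the upper 75% (0.994), the upper 50% (0.980) and the best 620 peaks (0.976), so it has no direction. The share of regions where HOXA9 covered least was 21.2% with the upper 50% and 21.2% with the best 620 peaks, against 32.0%; the cause of either shift was not tested. The HOXA9 and MLL-AF9 ratios stayed below 1 under each of the 5 changes to the lists, merging or membership. Peak lists without read counts limit all values to what was listed. No paired analysis was possible because each group had 1 library.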

Other observations

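The 8 regions in which all 3 oncogene libraries covered 0.5 times the non-transduced length or less, and the 2 at 2 times or more, rest on ratios that share the non-transduced library. The most even reduction was on chr2:156239962-156307108, where a non-transduced peak of 66.7 kb stood against peaks of 19.1 kb (MLL-AF9), 19.5 kb (HOXA9) and 19.6 kb (PML-RARa). Its non-transduced peak stood near the bottom of its list, at rank 86.8%, as did the HOXA9 peak (80.2%) and the PML-RARa peak (96.8%). The MLL-AF9 peak ranked at 12.0%. On chr11:116772451-116873861, with a non-transduced coverage of 101.4 kb at rank 0.263% of its list, HOXA9 covered 30.2 kb, PML-RARa 30.7 kb and MLL-AF9 40.8 kb. On chr5:33766877-33812386 the non-transduced peak of 44.9 kb, at rank 1.35%, stood against 18.2, 21.6 and 19.5 kb in the same order. The region on chr4:137997858-138036757 had a non-transduced peak of 11.7 kb at rank 41.0%, while MLL-AF9 covered 38.5 kb, HOXA9 36.3 kb and PML-RARa 24.8 kb. These regions were chosen by their values and have no test.

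Some ends of the shared regions were the same in all 4 libraries to within 200 bp, a distance chosen after the values were seen. There were 22 such ends in 22 regions, and the spread of the other end of the same region had a median of 9.59 kb. At 7 of the 22 the next region on that side lay within 2 kb, and the same held at 34 of the other 596 ends. A short gap is kept only where no library bridges it, so the merging rule bears on these counts and no contrast is drawn from them. The 7 include both sides of the gap of 865 bp at HoxA, the left end at HoxD with 1037 bp to the next region, and the right end of chr14:121844332-121882200 with 1099 bp. The closest agreement was at the left end of chr15:73259318-73312355, where the 4 libraries began within 17 bp and the next region ended 822 bp before. The mm9 sequence of these gaps was not analysed here.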
